A study of Mus musculus with 9 samples.

Results

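The genes that copy DNA and carry cells from G1 into S phase were followed through 3 flow conditions in a mouse brain endothelial cell line. The set holds 43 genes chosen by symbol for their known roles, of 31232 genes listed in the deposited table. All 43 symbols were found, and all 43 had enough counts to be tested. They cover origin licensing with 10 genes, activation of the replicative helicase with 4, the sliding clamp and its loader with 5, polymerases and primase with 5, single-strand binding with 2, lagging-strand maturation with 2, nucleotide supply with 5, chromatin at the fork and histone mRNA with 3, and E2F factors with G1 cyclins and kinases with 7.

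DNA replication starts in G1, when the origin recognition complex, Cdc6 and Cdt1 load the Mcm helicase onto origins. Cyclin D and cyclin E kinases then release E2F factors, which drive transcription of many of the genes described here, and S phase begins when Cdc45 and the GINS complex switch the helicase on. Endothelial cells of a mature vessel seldom divide, and steady laminar shear is known to hold them in G1, while regions of disturbed flow are known for faster turnover.

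The samples are 9 libraries of polyadenylated RNA from bEnd.3, a line of mouse brain endothelium immortalised with the polyoma middle T antigen, so its cell cycle is not that of a resting vessel. Cells on glass coverslips in a parallel-plate chamber received a vortex of 0.5 to 2 dyne/cm2 (Vortex, 3 samples), laminar flow at 20 dyne/cm2 (HSS, 3 samples) or laminar flow at 10 dyne/cm2 (PSS, 3 samples), which the submitters set for the late aneurysm, the early aneurysm and normal brain vessels. The labels give no length of exposure, and they do not say whether the 3 samples of a group were separate cultures. The p-values therefore measure the spread between these samples, which may be technical.

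Total counts were 17407217 to 22965802 per library. Levels are given as CPM, the count relative to a library total that was scaled by the trimmed mean of M values. Called genes had a p under 0.05 in edgeR's quasi-likelihood test on all 9 libraries after Benjamini-Hochberg adjustment over 15774 genes, and every adjusted p comes from that fit unless another is named. The Vortex libraries stood apart from each other. The squared differences of the 43 genes were 268 times what counting error gives between Vortex replicates 1 and 3. They were 643 times between 2 and 3 and 1340 times between 1 and 2. Between HSS libraries they were 1.42 to 1.81 times and between PSS libraries 7.23 to 68.6 times. The labelled cell type was also uneven. The summed level of 10 endothelial markers was 862, 7230 and 1360 CPM in Vortex replicates 1, 2 and 3, 602 to 627 CPM in HSS and 2460 to 3120 CPM in PSS. Cldn5, a claudin that seals the junctions of the blood-brain barrier, was at 0.82, 371 and 3.06 CPM in Vortex, at 0 to 0.0943 CPM in HSS and at 52.6 to 58.7 CPM in PSS. In that sum Vortex replicates 1 and 3 lay below every PSS library and Vortex replicate 2 above. Pearson's r of log2 levels across genes was 0.972 between Vortex replicates 1 and 3, 0.911 between 2 and 3 and 0.852 between 1 and 2. Replicate 2 was thus the furthest from the others, while which Vortex library stands for the condition was not tested. Because the Vortex libraries differ, replicate 2 is shown by itself, and counts are given with and without it.

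In many of these genes the start region holds letters that the choice by symbol did not use. RefSeq windows of GRCm38.p6, from 250 bases before to 50 after each start, were at hand for 36 of the 43 genes. In 34 of their 42 windows a stretch just after the start was found in a transcript of the gene. An E2F-type word (TTGGCGC as the first spelling, TTCCCGC as the second, TTGCCGC as another and TTCGCGC as the last) stood on either strand in 21 of these 36 genes (58.3%), against 10.9% of all 27025 genes. The CCAAT box stood on either strand in 22 (61.1%), against 41.1% of all genes. The windows of all genes were not matched to these for base composition, and a choice by role favours genes that E2F factors are known to drive. A reverse E2F-type word that ends in CCAA can overlap a CCAAT box or another such word, and a match is only a run of letters, not a bound site. The stretches below are those of Pola1 and Slbp, which were lower in Vortex, and of Rrm2 and Uhrf1, which lead their roles by level. Matches are in capitals, each stretch reads 5′ to 3′ on the gene's strand, and coordinates are of GRCm38.p6, while the counts were made on GRCm39.
Pola1, chrX:93632230-93632364, minus strand, with 3 E2F-type words: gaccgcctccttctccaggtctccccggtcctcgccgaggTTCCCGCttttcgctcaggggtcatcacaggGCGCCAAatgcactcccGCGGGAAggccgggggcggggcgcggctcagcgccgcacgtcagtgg
Rrm2, chr12:24708004-24708065, plus strand, with 1 E2F-type word: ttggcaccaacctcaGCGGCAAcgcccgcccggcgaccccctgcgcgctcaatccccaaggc
Uhrf1 upstream start, chr17:56303249-56303335, plus strand, with 1 E2F-type word and 1 CCAAT box: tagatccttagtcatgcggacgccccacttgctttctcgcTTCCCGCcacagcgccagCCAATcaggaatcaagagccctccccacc
Uhrf1 downstream start, chr17:56304089-56304175, plus strand, with 1 E2F-type word and 1 CCAAT box: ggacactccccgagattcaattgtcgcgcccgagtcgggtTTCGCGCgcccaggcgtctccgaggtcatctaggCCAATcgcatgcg
Slbp, chr5:33652597-33652722, minus strand, with 3 CCAAT boxes: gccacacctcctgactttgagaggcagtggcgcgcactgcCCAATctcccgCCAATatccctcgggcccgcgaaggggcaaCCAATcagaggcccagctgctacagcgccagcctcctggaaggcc
The Slbp window held none of the E2F-type words, and those of Mcm3 and Pold1 held them only after the start.

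Across the 9 libraries the 43 genes varied most between the Vortex libraries. The summed level of the 43 genes was 2100, 7680 and 3760 CPM in Vortex replicates 1, 2 and 3, 5000 to 5030 CPM in HSS and 5050 to 5560 CPM in PSS. Vortex replicate 1 lay below and Vortex replicate 2 above every HSS and PSS library. The order replicate 1, then 3, then 2 held for 41 of 43 genes, and the exceptions were Pola1 and Slbp. Vortex replicate 1 was the lowest of all 9 libraries for 41 genes and Vortex replicate 2 the highest for 29. Vortex replicates 1 and 3 were both below every HSS and PSS library for 33 genes, and all 3 Vortex libraries were for 6. These rank counts were not made over all tested genes, so no share stands beside them. Below the PSS mean lay 42, 10 and 38 of the 43 genes in Vortex replicates 1, 2 and 3. Of all 15774 tested genes, 7694, 7682 and 7896 did. Against the PSS mean the median gene differed by -1.25, 0.61 and -0.44 on the log2 scale in Vortex replicates 1, 2 and 3, by -0.09 to -0.05 in the HSS libraries and by -0.06 to 0.15 in the PSS libraries. The median coefficient of variation over the genes was 60.9% within Vortex, 2.73% within HSS and 15.4% within PSS.

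**Figure D1:**
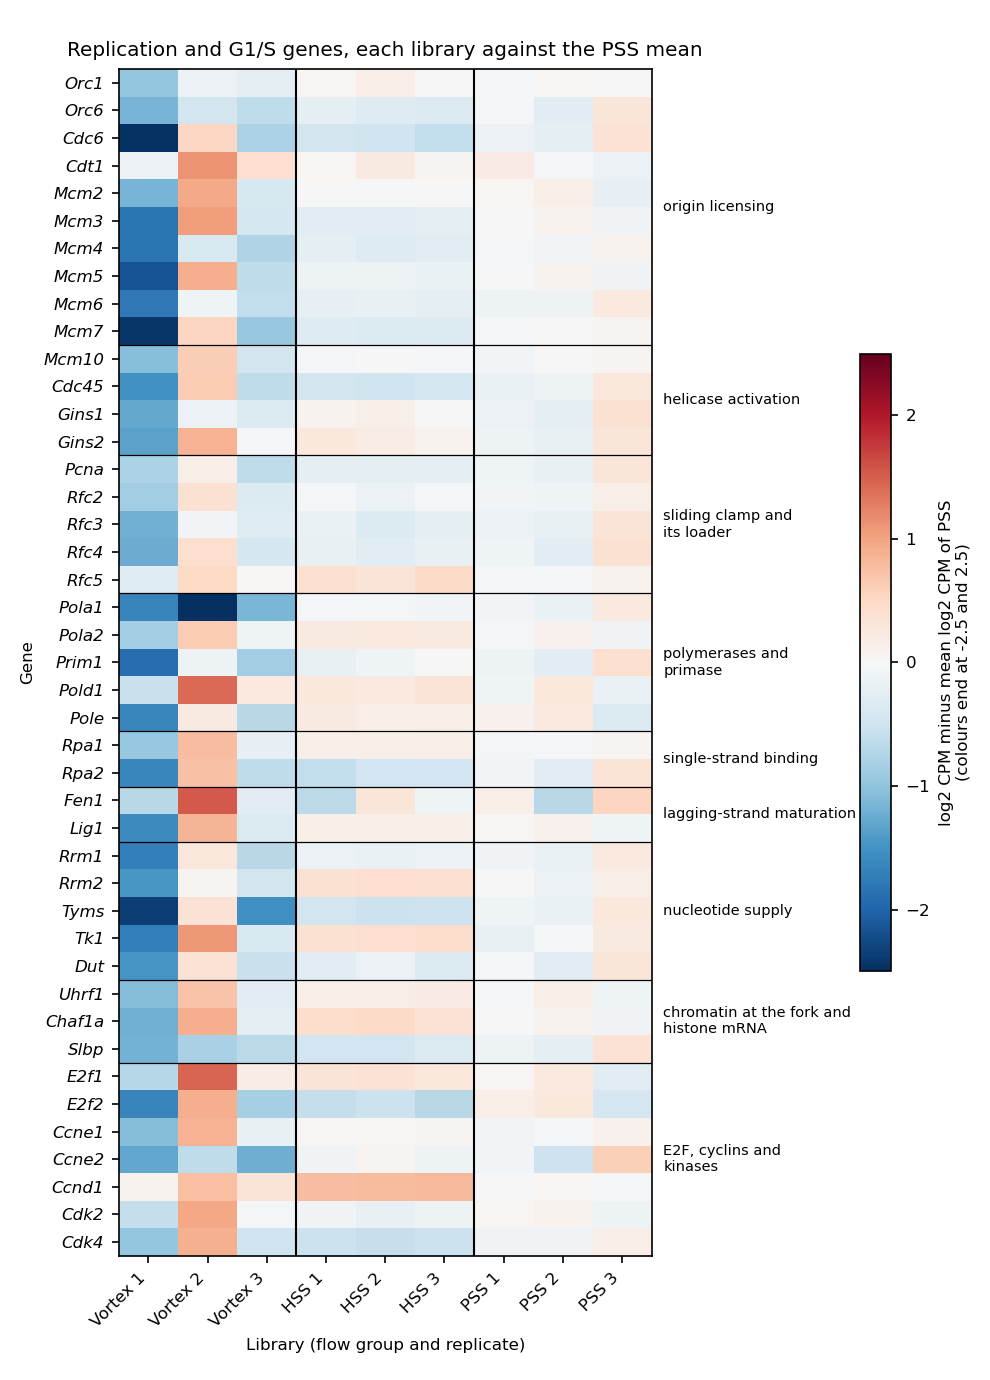
Each row is 1 of the 43 genes in its role and each column a library; the colour is log2 CPM minus the mean log2 CPM of the PSS libraries. Vortex replicate 1 is blue for 42 of 43 genes, Vortex replicate 2 is red for 33, and the HSS columns stay pale apart from a few rows such as Ccnd1.

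With all 3 Vortex libraries, 3 of the 43 genes fell in Vortex against PSS and none rose. The genes were Pola1, Slbp and Ccne2. They make 6.98% of the set, while 13.4% of all tested genes were called in this comparison, 5.03% lower and 8.33% higher. The median log2 fold change of the set was -0.19, against 0.11 over all tested genes. Of the set, 5 genes had an unadjusted p under 0.05. Vortex and PSS did not overlap for 7 of the 43 genes (16.3%), against 30% of all tested genes: Orc1, Orc6, Mcm4, Pola1, Slbp and Ccne2 lay below and Ccnd1 above. In bulk RNA, fewer cells in S phase and less of these transcripts per cell cannot be told apart.

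Without Vortex replicate 2, 28 of the 43 genes fell against PSS and none rose, which is 65.1% of the set, where 36.3% of all tested genes were called, 16.6% lower and 19.7% higher. The median log2 fold change was then -0.82, against 0.01 over all tested genes. The 15 genes that were not called in that fit were Orc1, Cdt1, Gins1, Gins2, Rfc3, Rfc5, Pola2, Pold1, Rpa1, Fen1, Chaf1a, E2f1, Ccne1, Ccnd1 and Cdk2. Vortex replicate 2 was the highest Vortex library for 41 of 43 genes, so leaving it out lowers the Vortex mean of these 41. The falls in this fit, and those of single genes in Vortex without replicate 2 given below, therefore depend on which library is left out. When Vortex replicate 1 was left out instead, the median was 0.12, with 3 genes lower and 1 higher, the last being Cdt1. In that fit 2808 of all tested genes were called, 1303 lower and 1505 higher. A fit of only the 6 Vortex and PSS libraries called 0 of the 43, with 5 at an unadjusted p under 0.05, and 0.488% of all tested genes. By DESeq2's Wald test 5 of the 43 fell, where 3489 of all tested genes were called, 1466 lower and 2023 higher. Without PSS replicate 1, or without PSS replicate 3, edgeR called 0 of the 43, where it called 519 and 1074 of all tested genes. Without any 1 HSS library it called 1 of the 43, where it called 1112 to 1116 of all tested genes.

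Against HSS, 1 of the 43 genes fell in Vortex, Pola1, and none rose, where 7.04% of all tested genes were called, 2.67% lower and 4.37% higher. The median log2 fold change of the set was -0.13, against 0.1 over all tested genes, and 3 genes had an unadjusted p under 0.05. The libraries of Vortex lay below those of HSS without overlap for 9 of the 43 genes (20.9%), against 36.4% of all tested genes that did not overlap in either direction. These were the 6 genes below PSS and also Gins1, Rrm2 and Ccnd1. Without Vortex replicate 2, 21 of 43 fell (48.8%) with a median of -0.69, where 23.9% of all tested genes were called, 10% lower and 13.9% higher. Without Vortex replicate 1 the median was 0.17 and 1 gene fell, where 2440 of all tested genes were called, 1008 lower and 1432 higher. Without any 1 HSS library the count was 0, where 25 to 26 of all tested genes were called. Without PSS replicate 1 it was also 0, where 331 were called. It was 0 again in a fit of only the 6 libraries, where 0.438% of all tested genes were called, 0.126% lower and 0.312% higher.

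**Figure D2:**
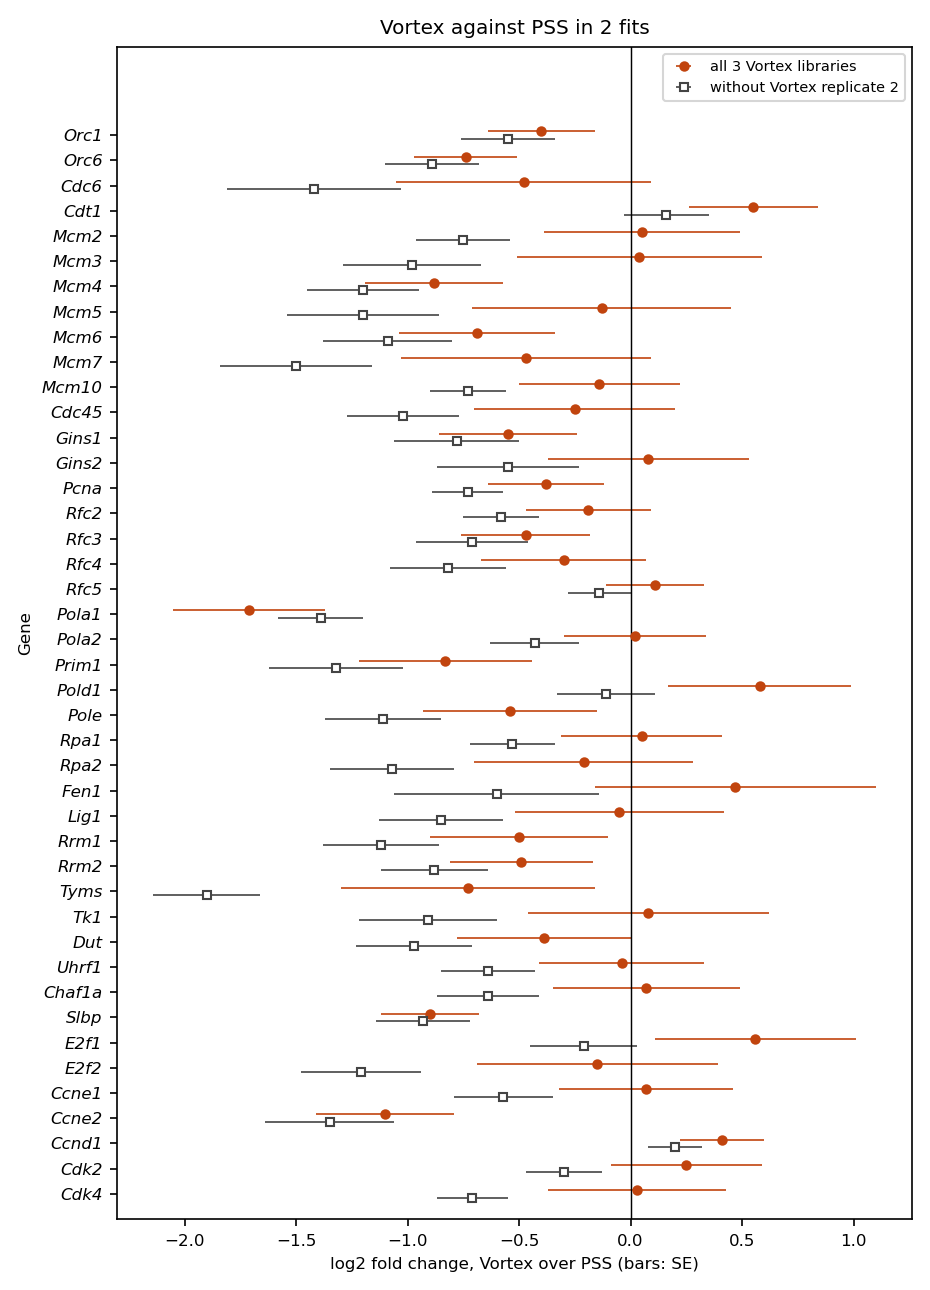
Log2 fold change of each gene in Vortex over PSS with its standard error, from all 9 libraries (filled) and from the 8 libraries without Vortex replicate 2 (open). The filled points spread around a median of -0.19 and the open ones around -0.82, and Pola1, Slbp and Ccne2 lie left of zero in both.

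Origin licensing was led by Mcm3, a subunit of the replicative helicase, which at 76.5 FPKM on average had the highest level per length of the 10 genes. Mcm3 was at 85.2, 623 and 222 CPM in Vortex, at 249, 247 and 259 CPM in HSS and at 302, 321 and 285 CPM in PSS. Vortex replicate 2 was above every laminar library and both other Vortex libraries were below, so the ranges overlapped. Its log2 fold change was 0.04 ± 0.55 (SE) in Vortex against PSS (adjusted p = 0.974) and -0.98 ± 0.31 without Vortex replicate 2 (adjusted p = 0.0326), lower in 2 of 2 libraries. The 10 licensing genes summed to 591, 2910 and 1290 CPM in Vortex, 1670 to 1690 CPM in HSS and 1890 to 1970 CPM in PSS. Mcm2, Mcm5 and Mcm7 were likewise highest in Vortex replicate 2, with a level in Vortex replicate 2 of 3.2, 4.32 and 4.11 times the mean of the other Vortex libraries, as did the loading factor Cdc6 at 3.8 times. The origin recognition subunits Orc1 and Orc6 had ratios of 1.34 and 1.33. Mcm4, a further helicase subunit, was at 53.7, 144 and 111 CPM in Vortex, at 161, 152 and 158 CPM in HSS and at 186, 182 and 200 CPM in PSS, with Vortex below both laminar groups and a log2 fold change of -0.88 ± 0.31 against PSS (adjusted p = 0.0905). Without Vortex replicate 2, 8 of the 10 fell against PSS, and Orc1 and Cdt1 were not called. Cdt1, which brings the helicase to the origin, was at 34, 82 and 50.5 CPM in Vortex, 38.6 to 44.3 CPM in HSS and 34 to 43.2 CPM in PSS, and of the 10 it was the closest to PSS in Vortex replicate 1. Mcm6, also of the helicase, was at 96.3, 308 and 217 CPM in Vortex, 284 to 291 CPM in HSS and 303 to 394 CPM in PSS.

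The helicase activation genes were lowest in Vortex replicate 1 and, summed, highest in Vortex replicate 2. Cdc45, which joins the loaded helicase when origins fire, had the highest level per length of the 4 genes, 16.7 FPKM. Cdc45 was at 23.7, 105 and 43.9 CPM in Vortex, at 49.5, 48 and 50.1 CPM in HSS and at 60.5, 62.4 and 82.9 CPM in PSS. The lowest and the highest of the 9 values were both Vortex libraries. Its log2 fold change in Vortex against PSS was -0.25 ± 0.45 (adjusted p = 0.754), and -1.02 ± 0.25 without Vortex replicate 2 (adjusted p = 0.00995). Mcm10, which steadies the active helicase, had log2 fold changes of -0.14 and -0.73 in the same fits. The GINS subunits Gins1 and Gins2 were not called in either, with -0.55 and 0.08 from all libraries and -0.78 and -0.55 without Vortex replicate 2. The 4 genes summed to 83.2, 303 and 148 CPM in Vortex, 182 to 186 CPM in HSS and 184 to 232 CPM in PSS.

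The sliding clamp and its loader had narrower ranges. Pcna, the ring that tethers polymerases to DNA, was at 94.4, 181 and 106 CPM in Vortex, at 140, 138 and 138 CPM in HSS and at 152, 143 and 201 CPM in PSS. Here PSS replicate 3 was the highest library and Vortex replicate 2 lay within the PSS range. The log2 fold change in Vortex against PSS was -0.38 ± 0.26 (adjusted p = 0.365), and -0.73 ± 0.16 without Vortex replicate 2 (adjusted p = 0.00667). Of the loader subunits, Rfc2 and Rfc4 also fell in that second fit, at -0.58 and -0.82, while Rfc3 and Rfc5 were not called, at -0.71 and -0.14. The 5 genes summed to 244, 510 and 340 CPM in Vortex, 394 to 418 CPM in HSS and 396 to 532 CPM in PSS.

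Polymerases and primase held the gene with the smallest p of the set in both Vortex comparisons. Pola1 (ENSMUSG00000006678), the catalytic subunit of DNA polymerase alpha that extends each primer, was at 27.1, 13.5 and 38.8 CPM in Vortex, at 83.6, 82.6 and 82.5 CPM in HSS and at 81.6, 76 and 102 CPM in PSS. All 3 Vortex libraries lay below all 6 laminar ones, and Vortex replicate 2, the highest library for most of the set, was the lowest here. The means were 26.5 ± 12.7 CPM in Vortex, 82.9 ± 0.58 CPM in HSS and 86.4 ± 13.4 CPM in PSS (SD, n = 3 each). Pola1 fell by 1.71 on the log2 scale against PSS (SE 0.34, edgeR adjusted p = 0.0129, lower in 3 of 3 libraries) and by 1.65 against HSS (SE 0.34, edgeR adjusted p = 0.0258, lower in 3 of 3). The first call was lost without PSS replicate 1 (adjusted p = 0.0531) or PSS replicate 3 (0.0527), and the second without any 1 HSS library (0.113 to 0.119) or PSS replicate 1 (0.0597). Fits of only the 6 libraries gave adjusted p-values of 0.0783 and 0.0884.

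The other 4 genes of this role were not called with all libraries. Pola2, the second subunit of polymerase alpha, was at 43.9, 124 and 73.8 CPM in Vortex, at 91.9 to 94.3 CPM in HSS and at 74.6 to 84.9 CPM in PSS, a log2 fold change of 0.02 ± 0.32 against PSS (adjusted p = 0.972). Prim1, the primase that makes the RNA primer, had -0.83 ± 0.39 (adjusted p = 0.193), and -1.32 ± 0.3 without Vortex replicate 2 (adjusted p = 0.00765). Pold1, the catalytic subunit of polymerase delta, led the role per length at 11.5 FPKM and was at 30.9, 120 and 53.4 CPM in Vortex, 54.1, 53.6 and 56.3 CPM in HSS and 42.2, 54.2 and 40.4 CPM in PSS. Vortex replicate 2 was above and Vortex replicate 1 below all other libraries. Its log2 fold change against PSS was 0.58 ± 0.41 (adjusted p = 0.386). Pole, the catalytic subunit of polymerase epsilon, was at 18.4, 66.1 and 35 CPM in Vortex and at 63.2 to 66.6 CPM in HSS and 44.4 to 67.6 CPM in PSS, with -0.54 ± 0.39 against PSS (adjusted p = 0.403).

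Single-strand binding and lagging-strand maturation repeated the split of the Vortex libraries. Rpa1, the large subunit of the protein that coats unwound DNA, was at 77.2, 255 and 128 CPM in Vortex, at 164, 165 and 166 CPM in HSS and at 146, 144 and 156 CPM in PSS. Lig1, the ligase that seals Okazaki fragments, was at 38.2, 207 and 89.6 CPM in Vortex, at 127, 127 and 127 CPM in HSS and at 117, 123 and 107 CPM in PSS. In both genes Vortex replicate 2 was the highest and Vortex replicates 1 and 3 were the lowest of the 9 libraries. Their log2 fold changes against PSS were 0.05 ± 0.36 and -0.05 ± 0.47 (adjusted p = 0.948 and 0.959). Rpa2, the middle subunit beside Rpa1, was at 14.9, 77.5 and 29.9 CPM in Vortex, 30.5 to 33.6 CPM in HSS and 38.7 to 58.8 CPM in PSS, with -0.21 ± 0.49 against PSS (adjusted p = 0.813). Without Vortex replicate 2, Rpa2 and Lig1 fell, by 1.07 and 0.85, and Rpa1 was at -0.53 (adjusted p = 0.0511). Fen1, the flap nuclease, was listed at 0.802 FPKM and 1.01 to 5.15 CPM over the 9 libraries, too low for a firm value, and was called in no comparison.

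Nucleotide supply held the gene with the widest spread within Vortex. Rrm2, the S phase subunit of ribonucleotide reductase, had the highest level per length of the 5 genes, 77.3 FPKM. Rrm2 was at 76.4, 220 and 152 CPM in Vortex, at 272, 281 and 279 CPM in HSS and at 208, 191 and 232 CPM in PSS. Vortex lay wholly below HSS, and Vortex replicate 2 lay within the PSS range. The log2 fold change was -0.89 ± 0.32 in Vortex against HSS (adjusted p = 0.118) and -0.49 ± 0.32 against PSS (adjusted p = 0.345), and without Vortex replicate 2 it was -1.28 ± 0.25 and -0.88 ± 0.24 (adjusted p = 0.00608 and 0.0185). Tyms, which makes thymidylate, was at 20.4, 135 and 36 CPM in Vortex, at 72.1 to 76.2 CPM in HSS and at 93.8 to 126 CPM in PSS. Its coefficient of variation within Vortex, 97.5%, was the largest of the 43 genes. Without Vortex replicate 2 all 5 genes fell against PSS, by 0.88 to 1.9 on the log2 scale, the 1.9 being Tyms (SE 0.24, adjusted p = 0.000284). Tk1, the thymidine salvage kinase, had a log2 fold change of 0.08 ± 0.54 with all libraries and -0.91 ± 0.31 without replicate 2, the reductase partner Rrm1 -0.5 ± 0.4 and -1.12 ± 0.26, and Dut, which removes dUTP, -0.39 ± 0.39 and -0.97 ± 0.26.

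Of the genes for chromatin at the fork and histone mRNA, Slbp fell. Slbp (ENSMUSG00000004642), the protein that binds the stem-loop of replication-dependent histone mRNAs, was at 49.6, 64.2 and 71.1 CPM in Vortex, at 81.1, 81.2 and 87 CPM in HSS and at 104, 95.1 and 145 CPM in PSS. The 3 groups did not overlap, with Vortex lowest and PSS highest, and Slbp had the smallest spread of the set within Vortex, a coefficient of variation of 17.9%. It fell by 0.9 on the log2 scale in Vortex against PSS (SE 0.22, edgeR adjusted p = 0.0276, lower in 3 of 3 libraries), and had a log2 fold change of -0.43 ± 0.22 against HSS (adjusted p = 0.238). The call against PSS was lost without any 1 HSS library (adjusted p = 0.0635 to 0.0645), without PSS replicate 1 (0.0815), without PSS replicate 3 (0.0786) and in a fit of only the 6 libraries (0.134), and with the GC trend removed it was at -0.54 (0.204). Uhrf1, which brings the maintenance DNA methyltransferase to new DNA, was the most abundant per length at 77.4 FPKM and was at 149, 523 and 259 CPM in Vortex, 357, 357 and 363 CPM in HSS and 311, 351 and 293 CPM in PSS. Its Vortex libraries again lay on both sides of the laminar ones, with -0.04 ± 0.37 against PSS (adjusted p = 0.962). Chaf1a, the large subunit of a histone chaperone that follows the fork, was at 36.6, 157 and 71.8 CPM in Vortex, 109 to 118 CPM in HSS and 79.7 to 89.9 CPM in PSS, with 0.07 ± 0.42 against PSS (adjusted p = 0.932).

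In the E2F, cyclin and kinase group, Ccne2 fell against PSS and the other 6 genes were not called. Ccne2 (ENSMUSG00000028212), a cyclin E that activates Cdk2 at S phase entry, was at 7.44, 11.9 and 7.75 CPM in Vortex, at 17.3, 19.1 and 16.9 CPM in HSS and at 17.5, 12.8 and 27.7 CPM in PSS. All Vortex libraries lay below all laminar ones, although Vortex replicate 2 was close to PSS replicate 2. Ccne2 fell by 1.1 on the log2 scale against PSS (SE 0.31, edgeR adjusted p = 0.049, lower in 3 of 3 libraries). The call was lost without Vortex replicate 1 (adjusted p = 0.0698) or 3 (0.134), without any 1 HSS library (0.0928 to 0.0937) and without PSS replicate 1 (0.122) or 3 (0.148). It was also lost with no filter on low counts (0.0526), by limma-voom (0.0591) and in a fit of only the 6 libraries (0.165), and with the GC trend of each library removed the log2 fold change was 0.1 (0.934). Ccne1, the other cyclin E, had a log2 fold change of 0.07 ± 0.39 (adjusted p = 0.925); whether the cyclins differ from each other was not tested. Cdk4, the cyclin D kinase, was the most abundant of the group per length at 80.8 FPKM and was at 151, 538 and 209 CPM in Vortex, 202, 196 and 202 CPM in HSS and 277, 277 and 326 CPM in PSS. Vortex replicate 2 was the highest library and replicate 1 the lowest, with 0.03 ± 0.4 against PSS (adjusted p = 0.972). The E2F factors E2f1 and E2f2, which switch on S phase genes, were highest in Vortex replicate 2 and lowest in Vortex replicate 1. E2f1 was at 22.9, 102 and 42.6 CPM in Vortex, 45.6 to 48.1 CPM in HSS and 31 to 44.1 CPM in PSS, and E2f2 at 13.1, 77.3 and 23.1 CPM in Vortex, 25.5 to 28.2 CPM in HSS and 30.6 to 49.2 CPM in PSS. Cdk2, the cyclin E kinase, was at 41, 120 and 60.2 CPM in Vortex, 54.2 to 58.2 CPM in HSS and 56.7 to 65.7 CPM in PSS. None of these 3 was called with all libraries, and without Vortex replicate 2 E2f2 fell against PSS, by 1.21 (SE 0.27, adjusted p = 0.00617).

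**Figure D3:**
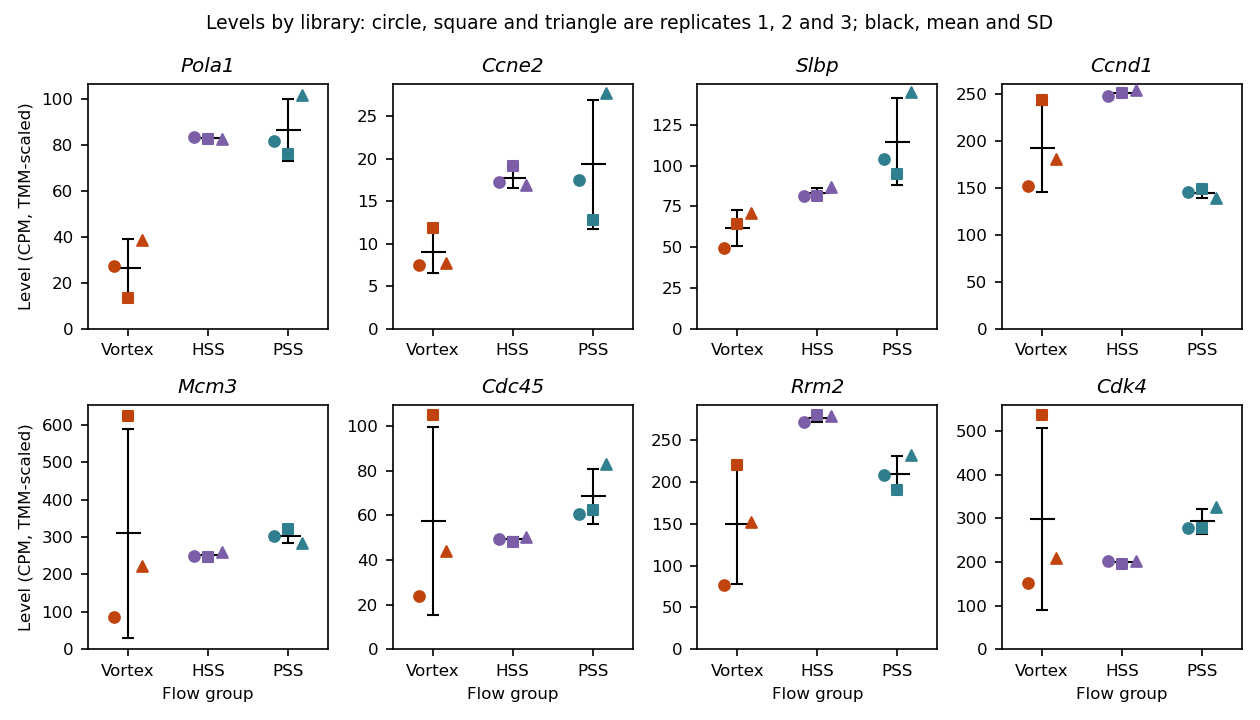
Levels in CPM of 8 genes in every library, with the group mean and SD in black. In Pola1, Ccne2 and Slbp all Vortex points lie below the PSS points, while in Mcm3, Cdc45 and Cdk4 Vortex replicate 2 is the highest point, and in Ccnd1 the HSS points lie above the PSS points.

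HSS set against PSS compares the stronger laminar shear with the weaker. Of the 43 genes, 1 rose, Ccnd1, and none fell, where 7.87% of all tested genes were called, 4.18% higher and 3.7% lower. The median log2 fold change of the set was -0.12, against 0 over all tested genes, and 1 gene had an unadjusted p under 0.05. Ccnd1 (ENSMUSG00000070348), the cyclin D that growth signals induce in G1, was at 152, 243 and 180 CPM in Vortex, at 248, 251 and 254 CPM in HSS and at 145, 148 and 139 CPM in PSS. Every HSS library lay above every other library. Ccnd1 rose by a log2 fold change of 0.8 ± 0.19 (SE, 1.74-fold, edgeR adjusted p = 0.0372, higher in 3 of 3 libraries). The call was lost without Vortex replicate 3 (adjusted p = 0.0585), without any 1 HSS library (0.141 to 0.154) and without any 1 PSS library (0.109 to 0.15), and it had an adjusted p of 0.000425 without Vortex replicate 2. All 3 Vortex libraries also lay above PSS for Ccnd1, with a log2 fold change of 0.41 ± 0.19 (adjusted p = 0.187).

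The groups HSS and PSS did not overlap for 23 of the 43 genes (53.5%), 10 above and 13 below, against 56.2% of all tested genes. In a fit of only the 6 HSS and PSS libraries 15 of the 43 were called (34.9%), 5 higher and 10 lower, where 40.8% of all tested genes were. The 5 higher genes were Ccnd1, Rfc5, Rrm2, Tk1 and Chaf1a, whose fold changes on the log2 scale with all libraries were 0.8, 0.4, 0.4, 0.4 and 0.43. The 10 lower genes included 4 licensing genes, Cdc6, Mcm3, Mcm4 and Mcm7, at -0.54, -0.27, -0.27 and -0.34. The others were Cdc45, Rpa2, Tyms, Slbp, E2f2 and Cdk4, at -0.48, -0.54, -0.51, -0.47, -0.64 and -0.55. Of the nucleotide genes, Rrm2 and Tk1 were thus above and Tyms below PSS. Without Vortex replicate 2, whose spread enters the fit of all libraries, 3 of the 43 were called, Ccnd1 and Rfc5 higher and Cdk4 lower, where 29.1% of all tested genes were called, 15.4% higher and 13.7% lower.

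Further genes of the same process, written down as a list of 64, are given by counts, and 63 of them were tested. In Vortex against PSS 7 fell and 2 rose (14.3%, against 13.4% of all tested genes), with a median log2 fold change of -0.11. The smallest p-values were those of Hells, Myb and Wdhd1. Hells, a chromatin remodeller that DNA methylation needs, was at 65, 42.5 and 74.5 CPM in Vortex, 191, 178 and 185 CPM in HSS and 176, 165 and 195 CPM in PSS, and fell by 1.56 against PSS (SE 0.22, adjusted p = 0.00479). Wdhd1, which links polymerase alpha to the helicase, was at 36.3, 33.6 and 39.9 CPM in Vortex, 72, 72.2 and 72.3 CPM in HSS and 67.4, 68 and 70.7 CPM in PSS, and fell by 0.91 (SE 0.15, adjusted p = 0.00786). As in Pola1, all 3 Vortex libraries of both genes lay below all laminar ones and replicate 2 was the lowest. Myb, a transcription factor, was low throughout at 0.143 to 0.296 CPM in Vortex, 1.51 to 1.89 CPM in HSS and 1.41 to 1.71 CPM in PSS, and fell by 2.73 (SE 0.4, adjusted p = 0.00508). These 3 calls held without any 1 library, with adjusted p-values up to 0.0466, and were lost in a fit of only the 6 libraries (0.0561 to 0.0851). Clspn, Fbxo5, Orc2 and Rfc1 fell too, while E2f4, an E2F that mainly represses, and Cdkn1a, the cyclin kinase inhibitor p21, rose. All 6 of these calls were lost without any 1 PSS library (adjusted p = 0.053 to 0.125), and those of Fbxo5, Orc2, Rfc1 and E2f4 also without any 1 HSS library (0.0604 to 0.0933), that of Fbxo5 without Vortex replicate 1 (0.0512) and that of Orc2 without Vortex replicate 3 (0.0513). With the GC trend removed Orc2 was at -0.38 (0.118), Fbxo5 at -0.58 (0.181) and E2f4 at 0.35 (0.137).

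Against HSS, 9 of the 63 fell in Vortex and none rose (14.3%, against 7.04% of all tested genes, 2.67% lower and 4.37% higher). Myb, Hells and Wdhd1 again had the smallest p-values, falling by 2.91, 1.6 and 0.98 (SE 0.4, 0.22 and 0.15, adjusted p = 0.00908, 0.00908 and 0.0138), and each call was lost without any 1 HSS library, at 0.0665 to 0.0885. The others were Orc2, Topbp1, Clspn, Samhd1, Rbl1 and Ccna2, whose calls were likewise all lost without any 1 HSS library (0.1 to 0.191). All but that of Ccna2 were also lost without PSS replicate 1 or without PSS replicate 2 (0.0575 to 0.102). Those of Orc2 and Samhd1 were lost without Vortex replicate 3 too (0.0571 and 0.0899), and that of Rbl1 without Vortex replicate 1 (0.061). Without PSS replicate 3 those of Orc2 and Rbl1 were lost (0.0511 and 0.0608). With the GC trend removed Orc2 was at -0.5 (0.0571) and Rbl1 at -0.53 (0.113). In HSS against PSS 2 of the 63 rose (3.17%, against 7.87% of all tested genes, 4.18% higher and 3.7% lower). Samhd1, which breaks down deoxynucleotides, was at 104, 102 and 104 CPM in HSS and 63.9, 63.7 and 67.8 CPM in PSS, a log2 fold change of 0.67 ± 0.15 (adjusted p = 0.0301). Cdk6, the second cyclin D kinase, was at 134, 138 and 136 CPM in HSS and 53.4, 54.5 and 37.5 CPM in PSS, a log2 fold change of 1.49 ± 0.38 (adjusted p = 0.0441). In both, all HSS libraries were above all PSS libraries. Each call was lost without any 1 HSS or PSS library, at 0.0585 to 0.148 for Samhd1 and 0.111 to 0.17 for Cdk6, and that of Cdk6 also without Vortex replicate 3 (0.0652). Cdkn1a was next, at 69, 77 and 69.1 CPM in HSS and 41.3, 43.8 and 28.4 CPM in PSS, with a log2 fold change of 0.92 ± 0.26 (adjusted p = 0.063). The 64 genes summed to 4050, 4880 and 4630 CPM in Vortex, 5510 to 5540 CPM in HSS and 4780 to 5060 CPM in PSS.

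The 15 markers of mitosis, the phase after S and G2, summed to 1710, 2150 and 2240 CPM in Vortex, 4290 to 4350 CPM in HSS and 3170 to 3960 CPM in PSS, so in this sum every Vortex library lay below every laminar one. The single markers went both ways in Vortex replicate 2. Plk1, Aurka, Aurkb, Birc5 and Cdc20 were at their highest of the 9 libraries there, and Mki67, Top2a, Bub1, Cenpf, Nusap1 and Tpx2 at their lowest. Plk1, a mitotic kinase, was at 39.5, 155 and 78.5 CPM in Vortex, 135 to 142 CPM in HSS and 68.3 to 74.1 CPM in PSS. Mki67, the common proliferation marker, was at 163, 70.7 and 173 CPM in Vortex, 590, 595 and 603 CPM in HSS and 506, 490 and 477 CPM in PSS. The median marker differed from the PSS mean by -0.99, -0.3 and -0.38 on the log2 scale in Vortex replicates 1, 2 and 3, and in replicate 2, 7 markers were above that mean and 8 below. Across the 15 markers Pearson's r between GC content and that difference was 0.78 in Vortex replicate 2, and with the GC trend removed the median there was -0.2.

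In Vortex 5 of the 15 fell against PSS (33.3%, against 13.4% of all tested genes, 5.03% lower and 8.33% higher) and none rose. These were Mki67, Kif11, Bub1, Top2a and Nusap1. The calls of Mki67, Kif11 and Bub1 held without any 1 library. That of Top2a was lost without any 1 HSS or PSS library (adjusted p = 0.0506 to 0.075), and so was that of Nusap1 (0.0625 to 0.124), which was also lost without Vortex replicate 1 (0.0629) and was at -0.41 with the GC trend removed (0.256). Against HSS 7 of the 15 fell (46.7%, against 7.04% of all tested genes, 2.67% lower and 4.37% higher) and none rose. All 7 calls were lost without any 1 HSS library (0.0758 to 0.152). That of Cenpf was also lost without Vortex replicate 3 (0.0821) or any 1 PSS library (0.0673 to 0.0841), and that of Top2a without PSS replicate 1 (0.0608). In fits of only the 6 libraries 0 of the 15 were called in either Vortex comparison by edgeR. In HSS against PSS none of the 15 was called by edgeR with all libraries, with 3 at an unadjusted p under 0.05. By DESeq2 1 of the 15 was called, where 2456 of all tested genes were. When Vortex replicate 2 was left out, 5 rose (33.3%, where 29.1% of all tested genes were called and 15.4% were higher), and in a fit of only the 6 libraries 8 rose (53.3%, where 40.8% were called and 20.4% were higher).

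**Figure D4:**
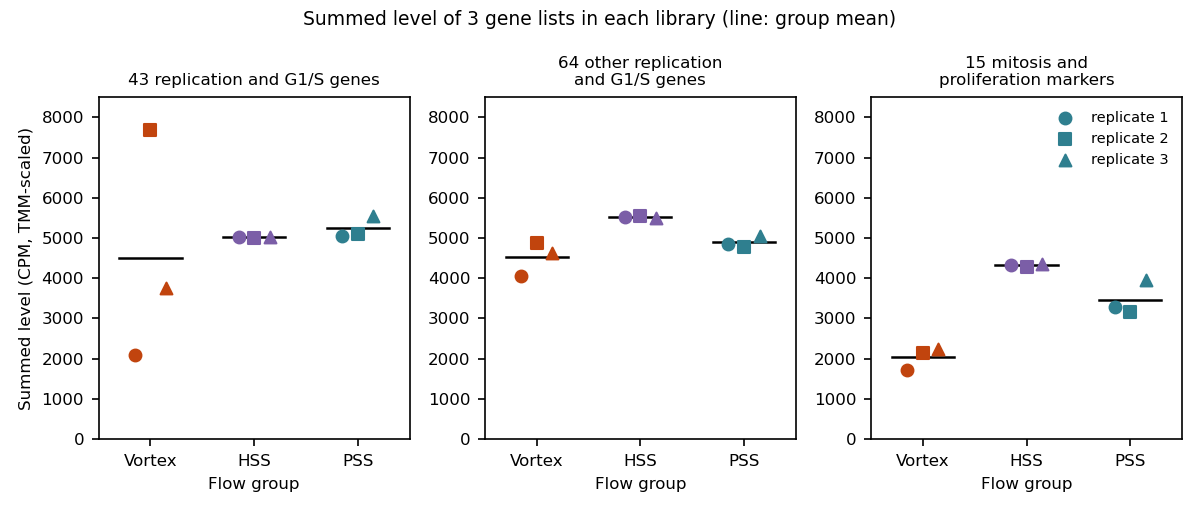
Summed CPM of the 43 genes, of the 64 further replication and G1/S genes and of the 15 mitosis markers in each library, with the group mean as a line. The 43 genes reach 7680 CPM in Vortex replicate 2 and 2100 CPM in Vortex replicate 1, while the mitosis markers, of which some are highest and some lowest in Vortex replicate 2, sum to 1710 to 2240 CPM in the 3 Vortex libraries.

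The base composition of a gene moved with its level in Vortex replicate 2. Relative to the PSS mean, the eighth of all tested genes with the lowest GC content had a median log2 difference of -1.41 in Vortex replicate 2 and the eighth with the highest had 0.9. The same pair was -0.13 and 0.18 in Vortex replicate 1 and -0.45 and 0.27 in Vortex replicate 3. The 43 genes ran from Ccne2 at 36.3% GC to Pold1 at 61%, with a median of 50.2% against 49.4% of all tested genes. Across the 43 genes, which share these libraries, Pearson's r between GC content and the log2 difference from PSS was 0.24, 0.77 and 0.57 in Vortex replicates 1, 2 and 3 (Spearman's rho 0.22, 0.84 and 0.47). Of the 3 genes lower in Vortex, Ccne2 (36.3%) and Pola1 (41.5%) belonged to the lowest eighth and Slbp (44.4%) to the next. Of the genes at the other end, Cdt1, E2f1 and Pold1 belonged to the highest eighth.

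With the GC trend of each library taken out, the Vortex libraries still lay on both sides of PSS. The median log2 difference of the 43 genes from PSS was then -1.22, 0.44 and -0.49 in Vortex replicates 1, 2 and 3, and Vortex replicate 2 was above the PSS mean for 39 of 43 genes, against 33 before. Of the calls against PSS, that of Pola1 held, with a log2 fold change of -1.27 (adjusted p = 0.0091), while those of Slbp and Ccne2 were lost. Against HSS, the call of Pola1 held at -1.32, and Ccnd1 was called lower at -0.54 (adjusted p = 0.0492). With Vortex replicate 2 left out as well, an alternative chosen after the data were seen, 30 of the 43 fell against PSS and 24 against HSS, with medians of -0.81 and -0.74. In that fit 6093 of all tested genes were called against PSS, 2870 lower and 3223 higher. Against HSS 4262 were called, 1842 lower and 2420 higher. The part of the endothelial markers, whose sum was also highest in Vortex replicate 2, was not tested.

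**Figure D5:**
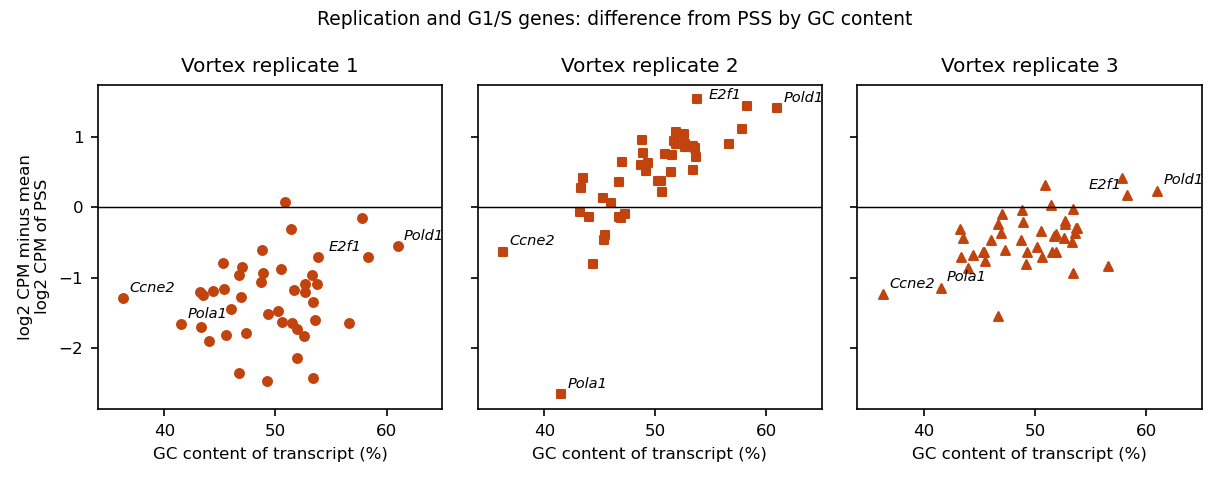
Log2 difference of each of the 43 genes from the PSS mean against the GC content of its transcript, for the 3 Vortex libraries. In Vortex replicate 2 the points climb with GC content (Pearson's r 0.77), with Pola1 and Ccne2 at the low end and Pold1 and E2f1 at the high end; in Vortex replicate 1 most points lie below zero at any GC content.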

How the data were processed

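For each of 31232 genes the authors deposited a raw count and an FPKM value in all 9 libraries. HISAT2, HTSeq 0.13.5 and build GRCm39 are named, per the submitters' processing notes. The annotation and the strand setting are not given in the sources used here, so reads of overlapping or antisense genes cannot be told apart. The deposited FPKM values are counts per gene length and column total, and served only to compare levels between genes.

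The tests ran in edgeR 4.0.16 under R 4.3.3. The filter filterByExpr left 15774 genes, TMM set the library scales, and a quasi-likelihood model with 1 mean per group was fitted to all 9 libraries (biological coefficient of variation 0.35, and 0.184 without Vortex replicate 2). Each standard error is the size of the log2 fold change over sqrt(F). Log values use a prior count of 2. With 3 against 3 libraries an exact permutation test of 1 gene could not pass 0.05, so p-values rest on the spread shared across genes and groups, which is unequal here: it understates the spread of Vortex and overstates that of HSS and PSS. Alternatives were DESeq2 1.42.0, limma-voom (limma 3.58.1), other size factors, no filter, a replicate block, only the 6 libraries compared, each library left out, and removal of a smooth GC trend per library (GC content known for 98.5% of tested genes from a GENCODE annotation of GRCm38). The procedure was also run on simulated data in which each gene had the same spread in all groups. That setting is unlike these data, so the run does not show how the procedure handles unequal spreads.

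The 43 genes, the 64 further genes, the marker lists and the tests were chosen with earlier results of these data known. Values per library are given for each of the 43 called in a comparison, for the member of each role with the highest mean FPKM, and for some others chosen after their values were seen. Of the 64 the 3 with the smallest p are named per comparison, and of other called members the names. Windows of RefSeq GRCm38.p6 were searched on both strands, and 7 of the 43 genes had none.

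Fibroblast markers (5 genes) summed to 633, 56.2 and 542 CPM in Vortex, 318 to 331 CPM in HSS and 271 to 340 CPM in PSS. They did not move together. Pdgfra and Dcn were above every laminar library in Vortex replicates 1 and 3, while Col1a1, at 124, 34.3 and 165 CPM in Vortex, was below every laminar library. Col1a2 and Lum were at most at 0.995 CPM. Macrophage and leukocyte markers (7) summed to 22.1 to 56 CPM in Vortex, 22.1 to 25.5 CPM in HSS and 6.87 to 7.86 CPM in PSS, with Ptprc at 0 to 0.0526 CPM in all 9. Pericyte and smooth muscle markers (7) summed to 6.38 to 49.8, 36.4 to 39.2 and 20.1 to 25.4 CPM in Vortex, HSS and PSS, and epithelial markers (5) to 6.48 to 20.6, 4.43 to 5.1 and 7.02 to 7.2 CPM. Their part in the results was not tested.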

Additional observations from a re-analysis of the deposited data

How the results depend on the processing

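Exchanging TMM for DESeq2 size factors changed no call of the 43 genes and, of the 64, ended those of Orc2 and Rbl1 in Vortex against HSS. Counts of called genes (all tested; the 43; the 64 further genes) did move. For HSS against PSS the replicate block gave 772, 0 and 0, DESeq2 2456 and, of the 64, 6, no filter 0 and 1 of the 43 and 64, only the 6 libraries 6233, 15 and 16, GC removal 4 of the 64, and GC removal without Vortex replicate 2 gave 4840, 4 and 11. For Vortex against PSS the block gave 1258 and 2 of the 43, DESeq2 3489, 5 and 15, no filter 5 of the 64, only the 6 libraries 74, 0 and 0, GC removal 1 of the 43, and with Vortex replicate 2 left out as well 6093, 30 and 35, median -0.81. For Vortex against HSS no filter gave 713 and, of the 64, 5, the block 357, 1 and 4, DESeq2 2700 and 2, only the 6 libraries 66, 0 and 0, GC removal 2 of the 43, and with Vortex replicate 2 left out as well 4262, 24 and 30, median -0.74.

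Leaving out 1 library at a time gave 285 to 4730 calls, 0 to 3 of the 43 and 0 to 12 of the 64 for HSS against PSS, 519 to 5888, 0 to 28 and 3 to 28 for Vortex against PSS, and 25 to 3887, 0 to 21 and 0 to 24 for Vortex against HSS. Medians of the 43 ran from -0.15 to 0, -0.82 to 0.12 and -0.69 to 0.17. The highest counts all came without Vortex replicate 2. In that fit the biological coefficient of variation, shared by all groups, was 0.184 against 0.35 with all libraries. HSS against PSS, which kept all its libraries, had 4730 calls there against 1242. The cause was not tested.

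Fold changes (log2) that changed sign and were called in 1 of the fits were, without Vortex replicate 2, those against PSS of Mcm2 (-0.75, and up to 0.36 with another library left out), Mcm3 (-0.98, up to 0.43), Tk1 (-0.91, up to 0.46) and Cdk4 (-0.71, up to 0.29) and those against HSS of Mcm2 (-0.73, up to 0.40) and Mcm5 (-1.06, up to 0.44); each highest value came without Vortex replicate 1. With the GC trend removed as well they were, against PSS, Mcm2 (-0.85), Mcm3 (-1.11), Rpa1 (-0.57), Tk1 (-1.03), Chaf1a (-0.76), Ccne1 (-0.70) and Cdk4 (-0.85) and, against HSS, Mcm2 (-0.80), Mcm5 (-1.14) and Ccne1 (-0.67). GC removal alone turned Ccne2 against PSS to 0.10.

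No shared effect of the replicate numbers was visible, though 3 libraries per group cannot show that the samples were unpaired. Deviations of libraries with the same number correlated across genes at 0.036, 0.007 and 0.041 between Vortex and HSS, 0.118, -0.049 and 0.097 between Vortex and PSS, and -0.019, -0.123 and 0.01 between HSS and PSS. Libraries with unlike numbers correlated at -0.036 to 0.009 between Vortex and HSS, -0.164 to 0.117 between Vortex and PSS, and -0.074 to 0.108 between HSS and PSS. The block ended the calls of Ccnd1 (HSS against PSS, adjusted p = 0.0692) and Ccne2 (Vortex against PSS, adjusted p = 0.0989). Low counts limit the values of Fen1 and Myb. Without a given exposure time or separate cultures, neither time nor culture can be told apart from flow.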
